A study of Mus musculus with 12 samples.

Results

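The cartilage collagens are the 8 genes that encode the chains of collagen types II, IX, X, XI and XXVII: Col2a1, Col9a1, Col9a2, Col9a3, Col10a1, Col11a1, Col11a2 and Col27a1. They were taken by gene symbol from the family's membership, a rule that uses no measured value, although the family was picked with earlier results of these data known. All 8 are among the 57010 gene IDs of the count tables, and 7 had counts and passed the filter on low values that left 14253 genes for testing. Col10a1 was listed at 0 in all 12 libraries.

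Transcripts were counted by poly(A)-selected RNA sequencing in primary mouse chondrocytes, the cells that make and maintain the cartilage matrix, all labelled with a wild type genotype. There were 3 groups of 4 libraries: Control, WT (cells transfected with the wild-type plasmid) and SIRT5F101L (cells transfected with the mutant plasmid). SIRT5, a sirtuin found mainly in mitochondria, takes malonyl, succinyl and glutaryl groups off lysines, and the series' title places the study in chondrocyte metabolism and osteoarthritis. The labels do not state the promoter or tag of the plasmids, what the control cells received, replicate numbers, the time after transfection, the age of the mice, or whether replicates came from separate cultures or animals. Replicates are numbered here in the order of deposition only, and a number shared by 2 groups pairs nothing. The p-values below therefore measure the spread between these libraries, which may be technical.

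Collagen II is a trimer of 3 identical chains and forms the bulk of the cartilage fibril. Collagen XI copolymerises with it, sits in the fibril core and limits fibril diameter, and its trimer joins the products of Col11a1, Col11a2 and a modified product of Col2a1 itself. Collagen IX is a trimer of the Col9a1, Col9a2 and Col9a3 chains that lies on the fibril surface and is cross-linked to collagen II. Collagen XXVII is a thinner fibril-forming collagen of cartilage, and collagen X forms a network around hypertrophic chondrocytes, the enlarged cells of the growth plate. SOX9, with SOX5 and SOX6, is the transcription factor best known for switching on the genes of collagens II, IX and XI.

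Upstream sequence is shown for Col9a1 and Col11a1, because Col9a1 had the lowest log2 fold change of the family in both plasmid groups and Col11a1, the most abundant chain after Col2a1, had the smallest fall of the family in SIRT5F101L. Col9a1 starts at either of 2 promoters, a distal start that gives the long cartilage chain and a start further into the gene that gives a short chain; the counts here are per gene and do not separate them. Each sequence is the 250 bases before an annotated start, 5′ to 3′ on the gene's strand, from RefSeq on GRCm38.p6. They lie at chr1:24177360-24177609 (distal Col9a1 start), chr1:24194953-24195202 (internal Col9a1 start) and chr3:114030290-114030539 (Col11a1), all on the plus strand. Capitals mark matches to the motifs searched.
Col9a1 distal promoter: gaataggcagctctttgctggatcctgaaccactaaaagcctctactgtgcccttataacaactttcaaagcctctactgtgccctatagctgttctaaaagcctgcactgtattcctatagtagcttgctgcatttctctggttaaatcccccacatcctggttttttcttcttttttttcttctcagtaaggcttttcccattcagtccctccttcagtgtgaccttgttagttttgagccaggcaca
Col9a1 internal promoter: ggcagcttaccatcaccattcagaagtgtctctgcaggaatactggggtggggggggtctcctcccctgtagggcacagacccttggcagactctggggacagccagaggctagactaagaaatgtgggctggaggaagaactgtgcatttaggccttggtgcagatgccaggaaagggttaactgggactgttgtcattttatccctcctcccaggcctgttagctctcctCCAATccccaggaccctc
Col11a1 promoter: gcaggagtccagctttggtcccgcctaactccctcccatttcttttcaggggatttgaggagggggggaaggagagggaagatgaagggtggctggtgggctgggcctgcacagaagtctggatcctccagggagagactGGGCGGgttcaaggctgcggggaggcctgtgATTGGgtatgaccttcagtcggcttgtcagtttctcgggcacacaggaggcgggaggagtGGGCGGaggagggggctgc

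The motifs searched on both strands were the TATA box TATAAA, the CCAAT box, the GC box GGGCGG, the cores ACAAAG (bound by SOX factors) and, also for SOX factors, ACAATG, and the RUNX core ACCACA. No match overlapped another in these windows. The distal Col9a1 window held none of these letters. The internal Col9a1 window held CCAAT at -18, counted backward from the start. The Col11a1 window held GGGCGG at -110 and -19 and CCAAT on the reverse strand at -79. Among 32851 mouse promoters of the same length, 33.8% held the CCAAT box, 32.7% the GC box, 16.5% the first SOX core, 10.7% the second SOX core, 14% the RUNX core and 12.4% the TATA box. The set of RefSeq promoters searched held windows for 6 of the 8 genes and none for Col2a1 and Col9a3. This is a gap in that set and not evidence that these genes lack an annotated start. The distal Col9a1 window had a GC content of 43.6%, the internal Col9a1 window 56% and the Col11a1 window 62.4%.

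Libraries held 15095357 to 24242139 counts. Levels are given as CPM, library-size-scaled counts after edgeR's TMM scaling, and 3 counts correspond to 0.12 to 0.195 CPM. SIRT5F101L replicate 1 stood apart from its group: on the second principal component of log2 CPM it lay at 20.3 and the other SIRT5F101L libraries lay at -23.5 to -17, with the WT libraries at -1.07 to 20.1. The slope of its log2 CPM on log2 transcript length was 0.586 against 0.726 to 0.748 in those 3, 0.609 to 0.697 in WT and 0.579 to 0.601 in Control. This slope therefore also differed between Control and the plasmid groups, SIRT5F101L replicate 1 apart, and with an offset for transcript length all 7 measured collagens were still called lower in both. WT replicate 1 was also the WT library nearest to those 3 SIRT5F101L libraries. It lay at -1.07 on that component and 0.697 in slope, against 12.5 to 20.1 and 0.609 to 0.647 in the other WT libraries. Mouse Sirt5 itself had 1 to 19 counts per library, at 0.688 ± 0.169 CPM (SD, n = 4) in Control, 0.384 ± 0.229 in WT and 0.721 ± 0.346 in SIRT5F101L. It was not called in any comparison (edgeR adjusted p 0.143 for WT against Control, 0.954 for SIRT5F101L against Control and 0.459 between the plasmid groups), so its counts do not check the labels. No gene on the X chromosome had a count in any library.

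In both plasmid groups, transcripts of all 7 measured cartilage collagens fell against Control. The falls ran from 1.88-fold (Col9a2) to 9.51-fold (Col9a1) in WT and from 2.75-fold (Col11a1) to 13.9-fold (Col9a1) in SIRT5F101L. In bulk libraries, fewer cells that make these collagens and less of their RNA per cell cannot be told apart. A gene is called here when the Benjamini-Hochberg adjusted p of edgeR's quasi-likelihood test over all 14253 genes is under 0.05. All 7 were called lower in WT, where 28.1% of tested genes were, and all 7 in SIRT5F101L, where 30.7% were. Of the 7, 6 were at least 2-fold lower in WT and 7 in SIRT5F101L, against 7.56% and 7.67% of all tested genes. For none of the 7 did any plasmid library reach the lowest Control library, a separation shown by 26.5% and 25.7% of tested genes in the lower direction. Both comparisons use the same 4 Control libraries, so they are not separate evidence.

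**Figure D1:**
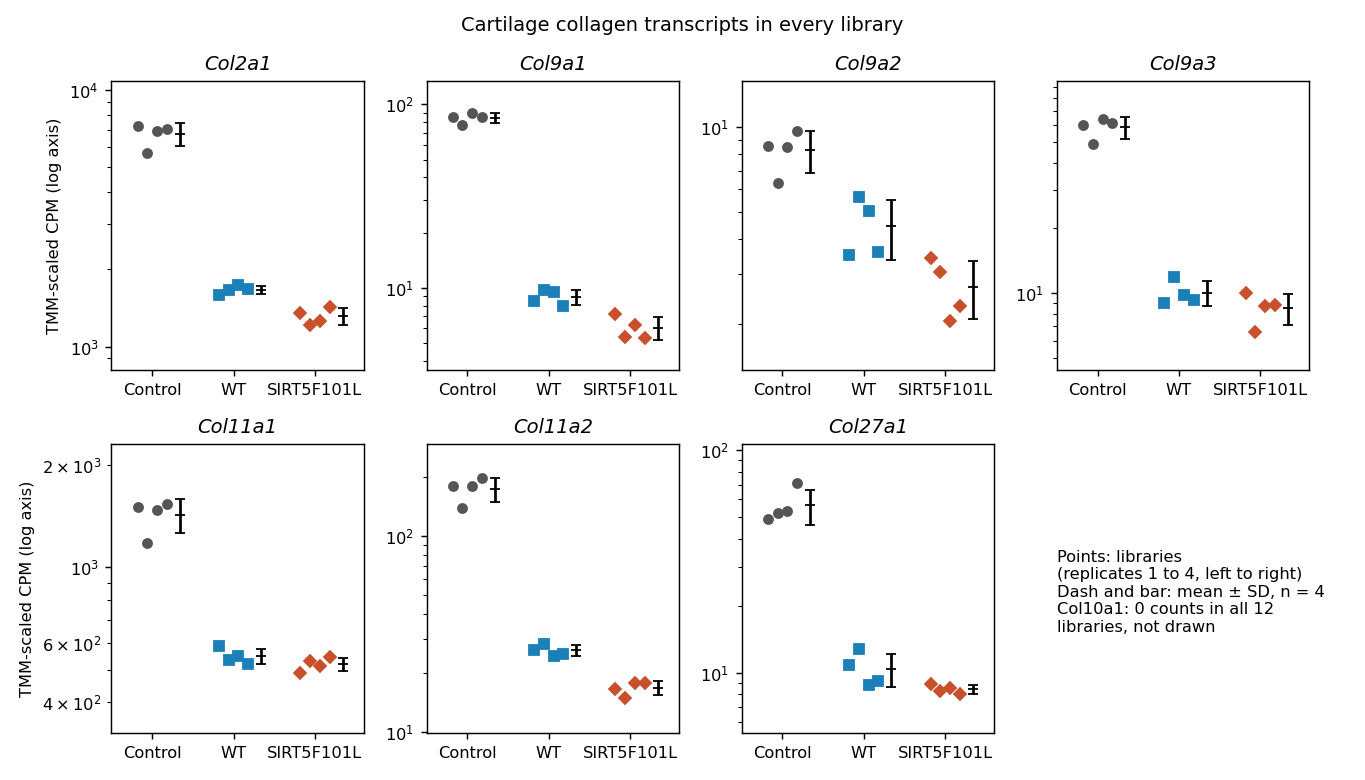
CPM (log axis) of each cartilage collagen transcript with counts in every library, 4 libraries per group, with a bar at each group's mean. The Control points lie above every WT and SIRT5F101L point for all 7 genes.

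Col2a1, on chromosome 15 with 54 exons in its longest transcript, encodes the single chain of collagen II. Control libraries held 7212.9, 5700.5, 6894.3 and 7066.6 CPM of Col2a1 in replicates 1 to 4. WT libraries held 1593.6, 1662.8, 1730.8 and 1672 CPM. SIRT5F101L libraries held 1356.8, 1214.1, 1255.3 and 1423.3 CPM. Every SIRT5F101L library was below every WT library, and Control replicate 2 was the lowest Control library. The log2 fold change against Control was -2.01 (adjusted p 9.79e-15 by edgeR, SE 0.08) in WT and -2.36 (adjusted p 9.43e-16 by edgeR, SE 0.08) in SIRT5F101L. Col2a1 alone took 0.565% to 0.682% of all counts in Control, 0.164% to 0.175% in WT and 0.124% to 0.146% in SIRT5F101L.

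Col11a1 and Col11a2, on chromosomes 3 and 17 with 67 and 64 exons, encode the chains that with a collagen II product build collagen XI. Col11a1 was at 1509, 1179.3, 1472.4 and 1541.6 CPM in Control replicates 1 to 4, at 588, 532, 549 and 520 CPM in WT and at 488, 529, 511 and 544 CPM in SIRT5F101L. The plasmid groups overlapped each other for this gene and lay well below Control. Its log2 fold change was -1.38 (adjusted p 3.95e-12 by edgeR, SE 0.08) in WT and -1.46 (adjusted p 1.56e-12 by edgeR, SE 0.08) in SIRT5F101L. Col11a2 was at 180, 138, 180 and 196 CPM in Control, at 26.3, 28.3, 24.5 and 25.1 CPM in WT and at 16.7, 14.9, 17.8 and 17.8 CPM in SIRT5F101L. Unlike Col11a1, its 3 groups did not overlap at all. Its log2 fold change was -2.73 (adjusted p 2e-15 by edgeR, SE 0.09) in WT and -3.36 (adjusted p 1.63e-16 by edgeR, SE 0.10) in SIRT5F101L.

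Col27a1, on chromosome 4 with 61 exons, encodes the collagen XXVII chain. Its levels were 49, 52.2, 53.1 and 71.2 CPM in Control replicates 1 to 4, 10.8, 12.8, 8.84 and 9.21 CPM in WT and 8.93, 8.25, 8.5 and 8.05 CPM in SIRT5F101L. Control replicate 4 was the highest of all 12 libraries, and the plasmid groups overlapped narrowly. Log2 fold changes against Control were -2.44 in WT (adjusted p 9.36e-13 by edgeR, SE 0.12) and -2.74 in SIRT5F101L (adjusted p 1.92e-13 by edgeR, SE 0.13).

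The 3 collagen IX chains lie on 3 different chromosomes, Col9a1 on 1, Col9a2 on 4 and Col9a3 on 2. Col9a1 was at 85.9, 76.8, 89.4 and 85.4 CPM in Control replicates 1 to 4, at 8.44, 9.75, 9.47 and 7.92 CPM in WT and at 7.16, 5.39, 6.26 and 5.33 CPM in SIRT5F101L. Its WT and SIRT5F101L ranges were separate, with at most 171 and 156 counts in a library against at least 1479 in Control. The log2 fold change of Col9a1 was -3.25 in WT (adjusted p 2.11e-16 by edgeR, SE 0.10) and -3.80 in SIRT5F101L (adjusted p 2.99e-17 by edgeR, SE 0.10). Among all tested genes, 0.624% had a lower value in WT and 0.414% in SIRT5F101L. Col9a3 was at 60.4, 48.9, 64.1 and 61.1 CPM in Control, at 8.93, 11.9, 9.82 and 9.31 CPM in WT and at 9.94, 6.56, 8.7 and 8.79 CPM in SIRT5F101L. The plasmid groups overlapped for Col9a3. Its log2 fold change was -2.56 in WT (adjusted p 2.07e-13 by edgeR, SE 0.12) and -2.78 in SIRT5F101L (adjusted p 6.19e-14 by edgeR, SE 0.12). By the annotation used here, 6.07% of the exon bases of Col9a3 overlap Tcfl5 on the other strand, and since the strand setting of the counting is not given, reads from that stretch cannot be told apart.

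Col9a2 was the least abundant of the 3 collagen IX transcripts. It was at 8.6, 6.34, 8.52 and 9.72 CPM in Control replicates 1 to 4, at 3.5, 5.64, 5.03 and 3.6 CPM in WT and at 3.42, 3.05, 2.05 and 2.32 CPM in SIRT5F101L. These levels rest on 125 to 178 counts per library in Control, 70 to 88 in WT and 41 to 64 in SIRT5F101L. The 3 groups did not overlap, although the highest SIRT5F101L library, replicate 1, lay just below the lowest WT library. The log2 fold change of Col9a2 was -0.91 in WT (adjusted p 0.000391 by edgeR, SE 0.19) and -1.62 in SIRT5F101L (adjusted p 7.31e-07 by edgeR, SE 0.20), and 8.93% and 3.47% of tested genes had a lower value.

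**Figure D2:**
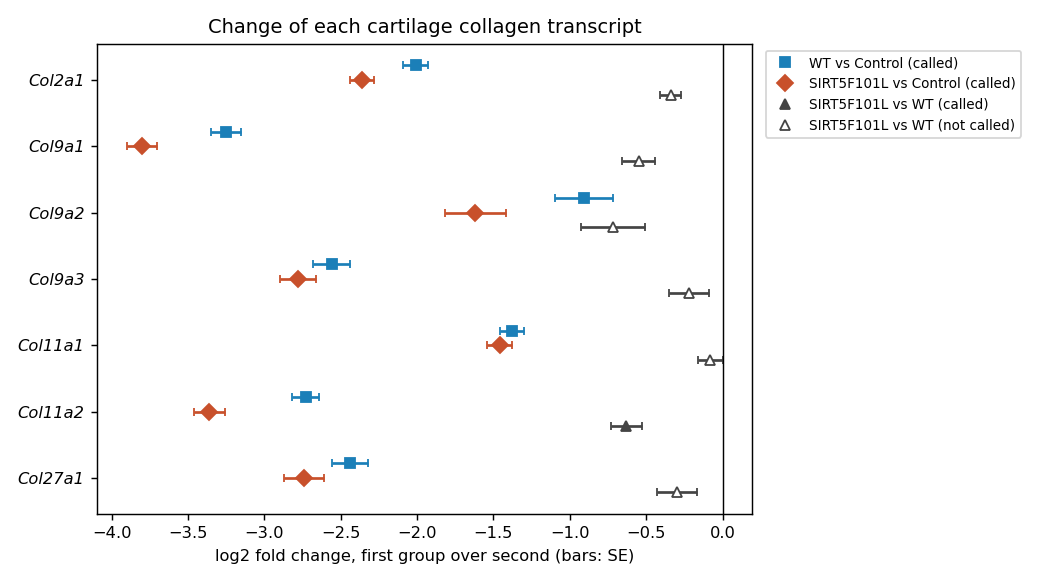
Log2 fold changes (first group over second, bars are the SE of the edgeR fit, 4 libraries per group) of the 7 collagen transcripts with counts. Values against Control run from -3.80 to -0.91 and are all called, while of the values between the plasmid groups, from -0.72 to -0.08, only that of Col11a2 is called (filled marker).

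The balance between chains that share a trimer or a fibril was compared as a ratio of counts within each library, which does not depend on how libraries are scaled. Each difference was tested by an exact 2-sided permutation test over the 70 arrangements of 8 libraries, whose smallest possible p is 0.0286, with Benjamini-Hochberg adjustment over 21 tests (7 ratios in 3 comparisons). Of the 7 ratios, 6 passed in WT against Control and 6 in SIRT5F101L against Control. Each of those 12 tests gave the smallest p, with an adjusted p of 0.0462. That value, just under 0.05, arises because 13 of the 21 tests gave the smallest p, so each pass depends on the others. The planned ratio of Col10a1 to Col2a1 could not be computed and is not among the 21. Ratios that share a gene are not independent, and how often ratios of other gene pairs pass was not computed.

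Within collagen IX, Col9a2 fell less than both of its partners. Per kilobase of transcript, Col9a1 outnumbered Col9a2 7.82 to 1 in Control, by 7.6, 9.2, 7.98 and 6.68 in replicates 1 to 4. The same ratio was 1.83, 1.31, 1.43 and 1.67 in the WT libraries and 1.59, 1.34, 2.32 and 1.74 in the SIRT5F101L libraries. Partners far apart in number in Control were closer in every plasmid library, with log2 differences of -2.33 in WT and -2.19 in SIRT5F101L (exact permutation p 0.0286 each, adjusted 0.0462). The Col9a3 to Col9a2 ratio moved the same way, from 6.81 in Control to 2.18 in WT and 3.02 in SIRT5F101L (log2 differences -1.64 and -1.17). Col9a1 and Col9a3 also parted. By counts per kilobase of the longest transcript, Col9a1 was the more abundant of this pair in every Control library (1.11 to 1.25). It was the less abundant in every plasmid library (0.653 to 0.767 in WT, 0.483 to 0.654 in SIRT5F101L). Ratios of raw counts were 1.4 to 1.57, 0.822 to 0.965 and 0.608 to 0.823 in the same order. Which chain is the more abundant depends on the length assumed, because the counts do not separate the long and short Col9a1 transcripts.

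Within collagen XI, Col11a2 fell more than Col11a1. Counts per kilobase of Col11a1 were 6.62, 6.72, 6.46 and 6.22 times those of Col11a2 in Control replicates 1 to 4. They were 17.6, 14.8, 17.7 and 16.3 times as many in WT and 23, 27.9, 22.6 and 24.1 times in SIRT5F101L, so the 3 groups formed 3 separate ranges. The log2 difference was 1.35 for WT against Control, 1.90 for SIRT5F101L against Control and 0.55 for SIRT5F101L against WT, each with exact permutation p 0.0286 and adjusted p 0.0462. Between the plasmid groups this was the only ratio of 7 to pass. Its adjusted p there rests on pooling with the tests against Control, most of which gave the same smallest p. Relative to Col2a1, Col11a2 was lower (log2 differences -0.72 in WT and -1 in SIRT5F101L) and Col9a2 higher (1.1 and 0.74), with the same p-values.

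**Figure D3:**
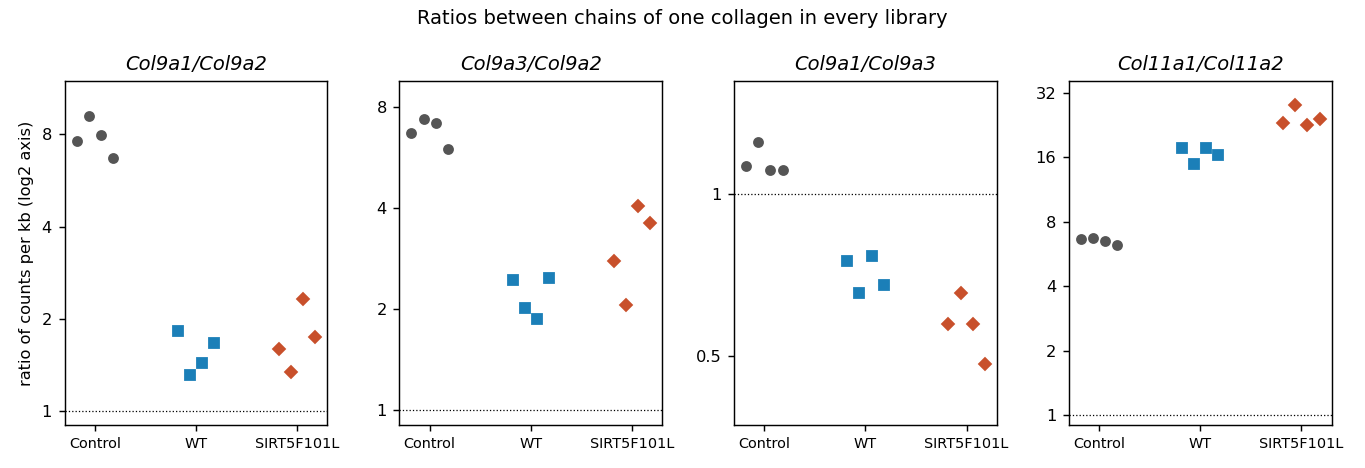
Ratio of counts per kilobase (log2 axis) between chains of collagen IX and of collagen XI in every library, 4 points per group, with a dotted line at 1. Col9a1 to Col9a2 falls from 6.68 to 9.2 in Control to 1.31 to 2.32 in the plasmid libraries, and Col11a1 to Col11a2 forms a separate range in each group.

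The exception was Col11a1 with Col5a1, a chain of collagen V that can share trimers with the Col11a1 product. Their ratio per kilobase was 0.876, 0.883, 0.878 and 0.892 in Control, 0.943, 0.861, 0.877 and 0.98 in WT and 0.883, 0.994, 0.879 and 0.864 in SIRT5F101L. The log2 difference from Control was 0.05 in WT (exact permutation p 0.4, adjusted 0.467) and 0.04 in SIRT5F101L (p 0.771, adjusted 0.81, same test), and leaving out 1 library at a time gave 0.02 to 0.08 and -0.01 to 0.06. Col5a1 itself fell from 1771.9 CPM to 657 in WT and 629 in SIRT5F101L (log2 fold changes -1.43 and -1.49, edgeR adjusted p 9.4e-12 and 4.59e-12).

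The order of the chains by counts per kilobase changed below the first pair. Col2a1 made up 83.2% of the family's counts per kilobase in Control (82.8% to 83.6%), 79.5% in WT (77.9% to 80.5%) and 77% in SIRT5F101L (75.5% to 78.2%). Col11a1 came next in every group, with 11.7%, 17.4% and 20.3%. In Control there followed Col11a2 (28.7 ± 4.04 CPM per kilobase, SD, n = 4), Col9a1 (22 ± 1.41), Col9a3 (19.2 ± 2.19), Col27a1 (7.41 ± 1.32) and Col9a2 (2.84 ± 0.484). The ranges of Col11a2 and Col9a1, and of Col9a1 and Col9a3, overlapped, and the others were separate. In WT the order was Col11a2 (4.31 ± 0.277), Col9a3 (3.28 ± 0.429), Col9a1 (2.32 ± 0.225), Col9a2 (1.52 ± 0.363) and Col27a1 (1.37 ± 0.235), of which only the last pair overlapped. In SIRT5F101L, Col9a3 (2.79 ± 0.463) and Col11a2 (2.78 ± 0.223) overlapped, Col9a1 (1.57 ± 0.225) was separate, and Col27a1 (1.11 ± 0.0498) and Col9a2 (0.927 ± 0.218) overlapped. All members together held 0.714% to 0.872% of a library's counts in Control, 0.226% to 0.237% in WT and 0.182% to 0.207% in SIRT5F101L. Control replicate 2 was the lowest Control library for 6 of the 7 transcripts with counts, and their summed level there was 7202.4 CPM against 8761.7 to 9105.4 in the other Control libraries.

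Between the plasmid groups, Col11a2 alone was called lower in SIRT5F101L than in WT. Its log2 fold change was -0.63 (adjusted p 0.0339 by edgeR, SE 0.10), and only 2 of 14253 tested genes, 0.014%, were called lower at all. This call was kept in 9 of 19 other settings, with adjusted p from 8.03e-10 to 0.167 (edgeR or DESeq2), and was lost on leaving out any of 10 of the 12 libraries (adjusted p 0.0515 to 0.167), while its log2 fold change stayed at -0.66 to -0.58. The 2 whose removal kept it were Control replicate 2 (0.00285) and SIRT5F101L replicate 1 (9.22e-05). The other 6 transcripts had lower means in SIRT5F101L and were not called: Col9a2 at -0.72 (adjusted p 0.312 by edgeR, SE 0.21), Col9a1 at -0.55 (SE 0.11, 0.0942), Col2a1 at -0.34 (SE 0.07, 0.125), Col27a1 at -0.30 (SE 0.13, 0.409), Col9a3 at -0.22 (SE 0.13, 0.494) and Col11a1 at -0.08 (SE 0.08, 0.675). Col2a1, Col9a1, Col9a2 and Col11a2 had no overlap between the plasmid groups, which 2.03% of tested genes showed in this direction. Without SIRT5F101L replicate 1, which stood apart from its group, edgeR called 4 members lower: Col11a2 (-0.62), Col2a1 (-0.36, adjusted p 0.00108), Col9a1 (-0.63, 0.000274) and Col9a2 (-0.85, 0.00677). In that fit 8.58% of 14528 tested genes were called lower, and 2213 genes (15.2%) were called in either direction, against 6 (0.0421%) with all libraries. Removing it changed no call of a cartilage collagen against Control, where the 7 log2 fold changes ran from -3.88 to -1.43.

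Col10a1, the collagen X gene on chromosome 10 with 3 exons, was listed at 0 in every library, and this cannot be read as a lack of expression. In GENCODE M21, all of its exon bases lie inside the span of Nt5dc1, a gene on the other strand, although only 0.575% of them overlap exons of that gene. Of 1005 autosomal protein-coding genes whose exons lie entirely inside another protein-coding gene's span, 828 (82.4%) were at 0 in all 12 libraries. Where only some exon bases lie inside such a span the share was 290 of 3386 (8.56%), and where none do it was 2798 of 16325 (17.1%). Chad, a fibril-binding chondrocyte marker that lies inside Acsf2, was at 0 in every library too. Why these genes are at 0 was not tested. No other cartilage collagen has more than the 6.07% of Col9a3 inside another gene.

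**Figure D4:**
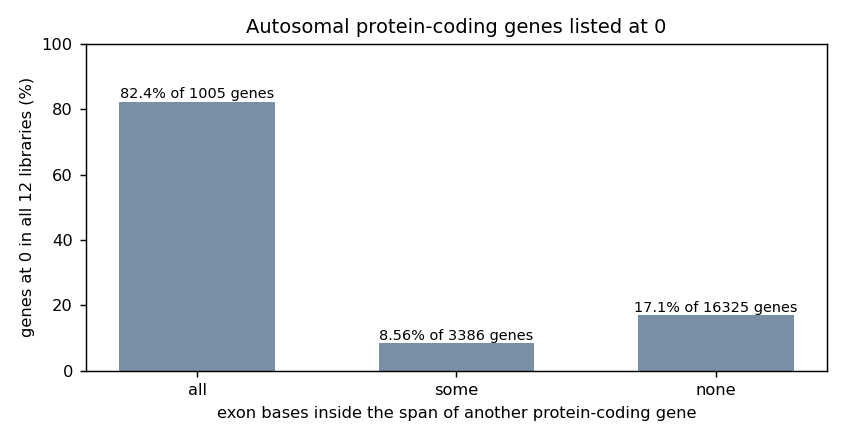
Share (%) of autosomal protein-coding genes listed at 0 in all 12 libraries, by whether all, some or none of their exon bases lie inside the span of another protein-coding gene. The share is 82.4% of 1005 genes in the class that holds Col10a1, against 8.56% and 17.1% in the other classes.

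With Col10a1 unread, other genes of chondrocyte hypertrophy were counted. Of 9, 8 were tested, and in each plasmid group 4 were called higher and 2 lower. Of all tested genes, 28.7% were called higher and 28.1% lower in WT, and 30% and 30.7% in SIRT5F101L. Spp1, which encodes the mineral-binding protein osteopontin, rose from 1937.4 CPM to 14553.6 in WT and 15440 in SIRT5F101L (log2 fold changes 2.91 and 2.99, edgeR adjusted p 5.02e-17 and 2.99e-17). Mmp13, the main collagenase of collagen II, rose too (2.56 and 2.82). Vegfa and Panx3 were the other 2 called higher, with smaller changes (0.42 and 0.49 for Vegfa, 0.78 and 0.64 for Panx3). The 2 called lower were Pth1r, the receptor of parathyroid hormone-related protein (-2.12 and -1.84), and Ibsp, bone sialoprotein, which went from 14.7 CPM in Control to 0.284 and 0.146 (-5.64 and -6.50, sizes that rest on few counts in the plasmid libraries). Runx2, a transcription factor of hypertrophy and bone, was not called, at 45.8, 42.6 and 50.3 CPM in Control, WT and SIRT5F101L. The list's median log2 fold change was 0.26 in WT and 0.34 in SIRT5F101L, against -0.013 and -0.017 over all tested genes.

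Among the 7 other fibril-forming chains, 6 were called lower in WT and 5 in SIRT5F101L, against 28.1% and 30.7% of all tested genes. Col1a2 and Col1a1, the chains of collagen I, fell (log2 fold changes -1.90 and -1.78 in WT, -1.99 and -1.90 in SIRT5F101L), as did Col3a1, of collagen III (-1.44 and -1.33). Col5a3 was the single chain called higher (0.62 and 0.73), and Col24a1 was called lower in WT (-0.52) but was not called in SIRT5F101L (-0.34, edgeR adjusted p 0.127). The median of this list was -1.43 and -1.33, and that of the 7 cartilage collagens -2.44 and -2.74.

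Transcription factors of the collagen genes held calls in both directions. Of 11 tested, 4 were called higher and 5 lower in WT, where 28.7% of all tested genes were called higher and 28.1% lower. In SIRT5F101L, 4 were higher and 3 lower, shares near those of all tested genes (30% and 30.7%). The medians were -0.11 and 0.12. Sox9 was 142 CPM in Control, 124 in WT and 113 in SIRT5F101L, and was called lower at log2 fold changes of -0.20 (adjusted p 0.0105 by edgeR, SE 0.06) and -0.34 (adjusted p 0.000132 by edgeR, SE 0.06). Sox5 rose (0.72 and 1.09), while its partner Sox6 fell (-0.44 and -0.33). Arid5a, a cofactor of SOX9, rose as well (1.09 and 0.98).

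Genes that modify and fold collagen chains were mostly lower. Of 17 tested, 11 were called lower and 2 higher in WT, and 12 lower and 2 higher in SIRT5F101L, with medians of -0.25 and -0.34. Over all tested genes, 28.1% and 30.7% were called lower and 28.7% and 30% higher. Serpinh1, the collagen chaperone HSP47, fell from 2334.1 CPM to 808 and 690 (log2 fold changes -1.53 and -1.76, edgeR adjusted p 3.46e-13 and 3.78e-14). The 2 called higher were P3h2, a prolyl 3-hydroxylase (1.43 and 1.36), and Colgalt2, which adds galactose to hydroxylysine (1 and 1.04). Among 13 genes of procollagen export and processing, 6 were called lower in each plasmid group, and 2 were called higher in WT and 4 in SIRT5F101L, with medians of -0.05 and -0.07. The share of this list called higher was not above that of all tested genes in WT (28.7%) and was near it in SIRT5F101L (30%), and the shares called lower over all tested genes were 28.1% and 30.7%. Adamts2, which removes amino-terminal propeptides, fell (-1.60 and -1.53). Tll1, a relative of the carboxy-terminal propeptidase Bmp1, rose from 3.97 CPM (2.30 and 2.26). Of the 5 lysyl oxidases that cross-link fibrils, Loxl3 (1.47 and 1.28) and Loxl4 (1.76 and 1.58) were called higher, and Lox, Loxl1 and Loxl2 lower, with list medians of -0.41 and -0.24.

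Genes for proteins that coat or bind the fibril were mostly lower. Of 8 tested, 6 were called lower and 1 higher in each plasmid group, with medians of -1.30 and -1.70, against 28.1% and 30.7% of all tested genes called lower. Comp, a pentamer that bridges collagen II and IX, fell (log2 fold changes -3.26 and -3.44, edgeR adjusted p 1.28e-17 and 5.77e-18), as did Fmod, the fibril-binding fibromodulin (-2.97 and -3.03, edgeR adjusted p 5.6e-18 and 3.91e-18). Decorin, Dcn, was the gene called higher (1.44 and 1.66). Of 8 collagen receptors, 4 were called lower and 3 higher in each group, with medians of -0.40 and -0.49, against 28.1% lower and 28.7% higher of all tested genes in WT and 30.7% and 30% in SIRT5F101L. Itga11 fell (-2.83 and -2.65) and Itga2 rose (2.57 and 2.84). Both encode alpha chains of collagen-binding integrins. Of 5 tested genes of collagen breakdown, 2 were called higher in each group, Mmp3 (6.55 and 6.85) and Mmp13, and 3 lower, Mmp14, Mmp2 and Ctsk, with medians of -0.50 and -0.66. Between the plasmid groups, 0 of the 80 different genes tested in these 9 lists were called by edgeR, 19 had an unadjusted edgeR p under 0.05 (11.9% of all tested genes did), and DESeq2 called 2, Mmp3 and Mmp13.

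**Figure D5:**
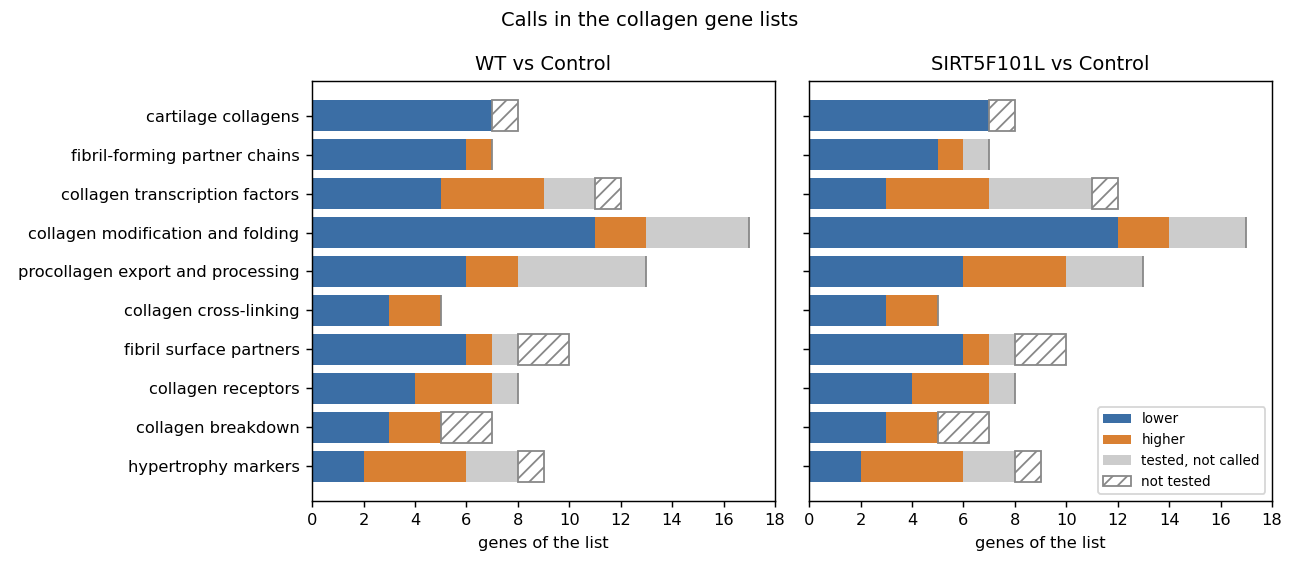
Number of genes (x axis) called lower, called higher, tested but not called, and not tested in each collagen list, for each plasmid group against Control (edgeR adjusted p under 0.05, 4 libraries per group). All 7 tested cartilage collagens are lower, while every other list drawn holds calls in both directions.

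Genes whose pattern over the 12 libraries was most like that of Col2a1 were found by the root mean square difference of centred log2(CPM + 1), among the 9789 named genes whose mean reached 5 CPM. The nearest were Acot2 (0.123), Atf5 (0.132), Jdp2 (0.149), Nid2 (0.152) and Snhg12 (0.158), none of them a fibrillar collagen. Acot2 encodes a mitochondrial acyl-CoA thioesterase, Atf5 and Jdp2 leucine-zipper transcription factors, Nid2 a basement membrane protein and Snhg12 a non-coding RNA. Of the cartilage collagens, Col9a3 ranked 34 (0.218) and Col27a1 41 (0.232), and Col9a1, which fell further, ranked 375 (0.572). The 12 libraries fall into 3 groups with different means, so this likeness is a description and carries no p.

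Markers of chondrocytes and of other cell types were summed in each group. Calls in them are read beside the 28.1% (WT) and 30.7% (SIRT5F101L) of all tested genes called lower and the 28.7% and 30% called higher. The summed level of 12 chondrocyte markers was 2265 to 2829.5 CPM in Control, 629 to 654 in WT and 535 to 577 in SIRT5F101L, and 9 of the 11 tested were called lower in each. Comp made up most of the Control sum (1697.1 to 2211.7 CPM), and the 11 others summed to 568 to 619 CPM in Control, 420 to 438 in WT and 344 to 386 in SIRT5F101L. Of the other 2, Hapln1 was called higher in both, and Acan, the main proteoglycan core protein, was called higher in WT (133 to 185 CPM, log2 fold change 0.47) but was not called in SIRT5F101L (143 CPM, 0.10). Among 8 fibroblast markers, the sum was 30672 to 36761.9 CPM in Control, 11080.9 to 12753.4 in WT and 11106.3 to 12474 in SIRT5F101L, and most of it came from Col1a1, Col1a2 and Col3a1. The members did not move together: of 7 tested, 5 were called lower in each plasmid group and 2, a share near that of all tested genes, higher: Pdgfra (log2 fold changes 0.39 and 0.62) and Prg4 (0.41 and 0.54). The 8 macrophage markers summed to 181 to 212 CPM in Control, 132 to 152 in WT and 141 to 182 in SIRT5F101L, with 7 called lower and Cd14 higher in each. The 6 osteoblast markers summed to 18 to 24.8, 4.12 to 4.79 and 3.51 to 5.21 CPM in the same order, and 2 of the 3 tested, Sp7 and Ibsp, were called lower in each plasmid group while Alpl was not called. Ibsp alone held 10.6 to 17.3 CPM of the Control sum, and the 5 others summed to 7.29 to 7.64, 3.75 to 4.49 and 3.34 to 5.01 CPM. Ifitm5 had at most 3 counts in any library, those in 1 Control library. Muscle markers (5) summed to 7.43 to 8.87, 2.25 to 4.27 and 1.76 to 3.64 CPM, and both members tested, Acta1 and Des, were called lower in each plasmid group. Ckm had at most 3 counts in any library. Endothelial markers (5) summed to 3.54 to 4.58, 3.24 to 4.17 and 3.17 to 4.82 CPM, ranges that overlap, and 0 of the 4 tested were called against Control by edgeR or DESeq2 (at an unadjusted edgeR p under 0.05, 0 in WT and 1 in SIRT5F101L). Adipocyte markers (5) summed to 23.6 to 26.5, 29.6 to 34.9 and 24.7 to 37.9 CPM, a sum that is almost wholly Fabp4, the single member tested (23.2 to 25.5 CPM in Control, 24.5 to 37.9 in the plasmid libraries), which was called higher in each plasmid group (log2 fold changes 0.39 and 0.31). Adipoq had 1 to 15 counts in the Control libraries, 0 in WT and 0 to 2 in SIRT5F101L, and Lep and Cidec had at most 3 in any library. The part of cell composition in the fall of the collagens was not tested.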

How the data were processed

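Libraries of poly(A)-selected RNA were made with a NEBNext Ultra kit and sequenced as paired-end reads, per the labels' protocols. Each library has a deposited table of raw read counts by Ensembl gene ID. The submitters' processing notes name FastQC 0.11.9, HISAT2 2.2.1, HTSeq 2.0.2, DESeq2 1.38.3 and the build GRCm39; the annotation and strand setting are not given in the sources used here. Groups come from the treatment label; the labels give no batch and no pairing.

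Symbols were matched for 52029 of 57010 IDs. Tests used edgeR 4.0.16 in R 4.3.3 after filterByExpr and TMM normalisation, in 1 quasi-likelihood model over all 12 libraries (9 residual degrees of freedom). P-values were Benjamini-Hochberg adjusted over 14253 genes. The biological coefficient of variation was 9.18%. The pipeline was also run on simulated counts with a common dispersion and far fewer changed genes than here, so that run does not check the calls above. Alternatives were RLE and upper-quartile scaling, other filters, DESeq2 1.42.0, a transcript-length offset (loess span 0.5), fits of 8 libraries, and leaving out each library. Chain ratios add 0.5 to each count (1 as an alternative). A ratio of Col10a1 to Col2a1 and the genes most like Col10a1, both planned, could not be computed from counts of 0. Libraries carry no molecular identifiers, so a floor of 3 counts covers counting error only.

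Gene positions, lengths (longest transcript) and overlaps come from GENCODE M21 on GRCm38, not the build of the counts, and covered 98.8% of tested genes. The members and lists were chosen with earlier results of these data known. By rule, the text names the members, Sirt5, Sox9, the 2 genes of each list with the lowest adjusted p in each control comparison, and the 5 genes most like Col2a1; other list genes complete a count or are exceptions chosen after their values were seen.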

Additional observations from a re-analysis of the deposited data

Results flagged for a closer look

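Of 42 sets of 4 values screened (7 gene levels and 7 chain ratios in each of 3 groups), 3 held a library far from the other 3 of its group by Dixon's test, where chance alone gives about 2.1. The log2 ratio of Col9a1 to Col9a3 counts was 0.651 in Control replicate 2, against 0.481 to 0.509 in the other Control libraries. The log2 ratio of Col11a2 to Col2a1 counts was -6.14 in SIRT5F101L replicate 3, against -6.34 to -6.32 in the others, and that value equals the lowest in WT. The log2 ratio of Col11a1 to Col5a1 counts was -0.141 in SIRT5F101L replicate 2, against -0.344 to -0.312 in the others. By this test no level of a single cartilage collagen stood apart, although Control replicate 2 was the lowest of its group for 6 of 7.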

How the results depend on the processing

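All 7 cartilage collagens stayed called lower in both plasmid groups against Control in all 19 other settings, with log2 fold changes from -3.30 (Col9a1) to -0.81 (Col9a2) in WT and from -3.88 (Col9a1) to -1.42 (Col11a1) in SIRT5F101L. Between the plasmid groups, the number of genes called, 6, became 354 without the filter on low counts, 43 with DESeq2, 18 with the length offset, 2 with the 8 libraries alone and 0 to 2213 on leaving out single libraries (2213 without SIRT5F101L replicate 1). The collagens called lower there, 1, became 4 without the filter, 3 with the length offset, 3 with DESeq2 and 0 to 4 on leaving out single libraries. The cause of these shifts was not tested. Sirt5, at a log2 fold change of 0.03 in SIRT5F101L against Control and never called in it, was -0.01 with upper-quartile scaling, and -0.31 to 0.18 on leaving out single libraries (-0.11 without Control replicate 3, -0.31 without SIRT5F101L replicate 2). Chain ratios passed in the same numbers with 1 added to each count; with a library left out, they were recomputed without a test and kept their direction where they had passed. No paired analysis was possible because the labels carry no replicate numbers; those used here follow the order of deposition. Depth limits Col9a2 most, at 41 to 64 counts in the SIRT5F101L libraries.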
